A study of Mus musculus with 8 samples.

Results

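Whole mouse embryos with a hypomorphic Prep1 allele (gene symbol Pknox1), sequenced as 1 library, were compared with 1 library of their wild-type (WT) control littermates. The genotype is read off the labels, and the pair makes up 2 of the 8 messenger RNA libraries of the series. All libraries come from C57BL/6 embryos at embryonic day 11.5. The other 6 are 3 from Meis1 knockout (KO) embryos and 3 from their WT littermates, and they are used here only to place the values of the Prep1 pair. Of 17348 genes listed in the Prep1 table, 13780 had at least 20 counts in the higher of the 2 libraries and were kept. A hypomorphic allele leaves some of the gene's product. Neither the allele nor the number of embryos in a library is stated in the sources used here. With 1 library per genotype there is no replicate and no test. Ratios are log2 ratios of CPM, the counts of a gene scaled to the library total, hypomorph over WT, with a prior count of 2, and 95% intervals are exact and cover counting error only.

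Prep1 is a homeodomain transcription factor of the TALE family, whose members carry an extra loop of amino acids in the homeodomain. It pairs with Pbx proteins, and the pair is held in the nucleus and binds DNA together, at times with a Hox protein. Meis proteins compete for the same Pbx partners. In the mouse, reduced Prep1 is known to impair blood formation, vessels and the eye, and complete loss is lethal early in development. The question of the comparison is which transcripts differ in whole embryos when Prep1 is reduced.

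Pknox1 was checked first, since it tests the labels. It lies on chromosome 17, from 31701718 to 31744638 in mm9, the build of the deposited tables. The hypomorph library held 14 Pknox1 counts (2.38 CPM) and the WT library 129 counts (32.2 CPM), a log2 ratio of -3.55 with an interval of -4.67 to -2.96. That is 11.7-fold lower in the hypomorph library, with transcript still detected. The Meis1 tables were normalised separately by the authors, so levels across the tables are set side by side only. In them Pknox1 lay between 22.4 and 23.5 CPM in the 3 KO libraries and between 25.3 and 29.3 CPM in the 3 WT libraries. The hypomorph library was therefore below all 7 other libraries for this gene.

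The hypomorph library held 5893401 counts and the WT library 4000984 counts, so 1 count is worth 0.17 CPM in the hypomorph and 0.25 CPM in WT. Mitochondrially encoded genes took 1.71% of hypomorph counts and 1.83% of WT counts, and globins took 0.763% of hypomorph counts and 0.562% of WT counts. The quartiles of the log2 ratio over all genes kept were -0.15 and 0.22, and the median was 0.02. A ratio past 2-fold in a gene with 20 or more counts is called here higher or lower. By that rule 298 genes were higher (2.16% of those kept) and 62 were lower (0.45%) in the hypomorph library. Since 20 counts are a lower CPM in the larger hypomorph library, the rule admits higher genes at lower levels than lower genes. Of all genes kept, 53.5% had a ratio above 0, and the counts of list members given later are set beside these shares. Of the 298, 164 had fewer than 50 counts in their higher library, and the same held for 41 of the 62.

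**Figure D1:**
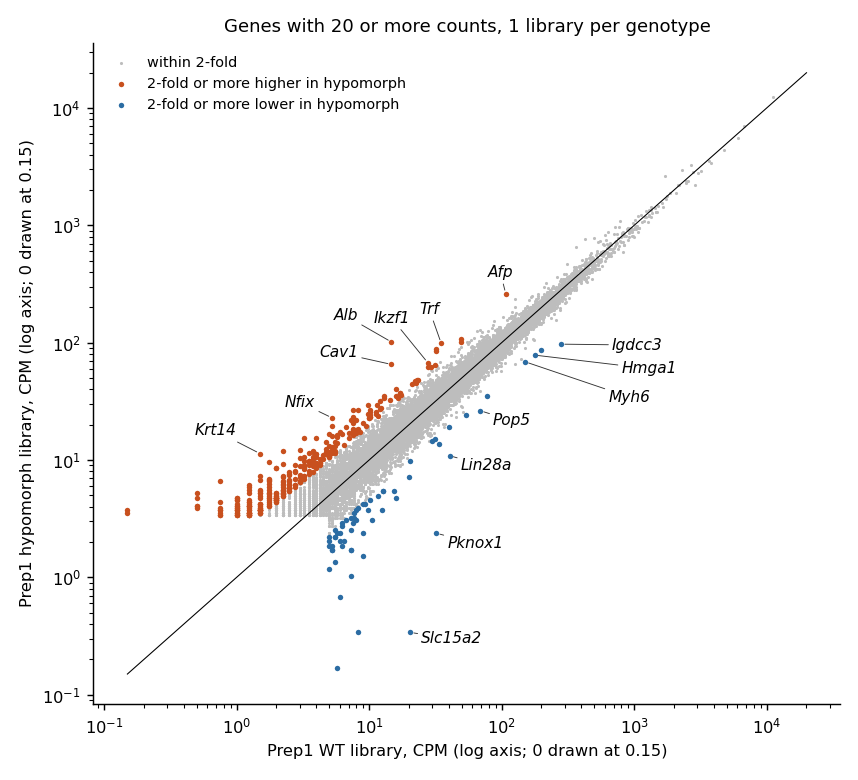
Level of each of 13780 genes in the hypomorph library (vertical axis) and the WT library (horizontal axis), in CPM on log axes, with the diagonal of equal levels. Orange points are the 298 genes called higher and blue points the 62 called lower. Pknox1 and Slc15a2 stand farthest below the diagonal among well counted genes, and Alb, Krt14 and Cav1 stand above it.

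The same rule was applied between WT libraries of the Meis1 litters, whose whole counts were worked back from the deposited group means and which are lettered a, b and c by size. Between WT libraries a and b 6.73% of genes were past 2-fold, and 3.08% were past it in each of the other 2 pairings. Over the genes with values in both tables the share in the Prep1 pair was 2.67%. So the hypomorph and its WT littermate library differed in no larger a share of genes than WT embryos of this day differed among themselves. The Prep1 WT library set against the mean of the 3 Meis1 WT libraries was past 2-fold in 7.45% of genes, and the hypomorph library in 9.08%. Differences of genotype and differences between individual embryos cannot be told apart in this design.

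Many of the genes called in the Prep1 pair also varied between Meis1 WT libraries. Of the 298 genes called higher, 168 (56.4%) were past 2-fold in at least 1 pairing of Meis1 WT libraries, against 8.39% of all genes kept. Of the 62 called lower, 24 (38.7%) were. No minimum count was set on the Meis1 libraries for these shares. The median count in the higher Prep1 library was 42 for the higher genes, 32.5 for the lower genes and 194 for all genes kept. Counting error is larger at low counts and adds to these shares. Restricted to genes with 50 or more counts, these shares were 64.2% of 134 higher genes, 57.1% of 21 lower genes and 5.26% of all genes. The direction was mostly the same as between WT libraries b and a. Of the 298 genes, 245 (82.2%) were higher in Meis1 WT library b than in a, with a median log2 ratio of 0.77, against 48.6% of all genes. In WT library c over a, 74.5% were higher. The 62 lower genes had a median of -0.15 in b over a, and the 21 of them with 50 or more counts had a median of -0.57. The authors' deposited table gave these sets median log2 ratios near 0 for Meis1 KO over WT, -0.07 for the higher genes and 0.02 for the lower genes. The labels give embryonic day 11.5 for every library and no finer stage.

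**Figure D2:**
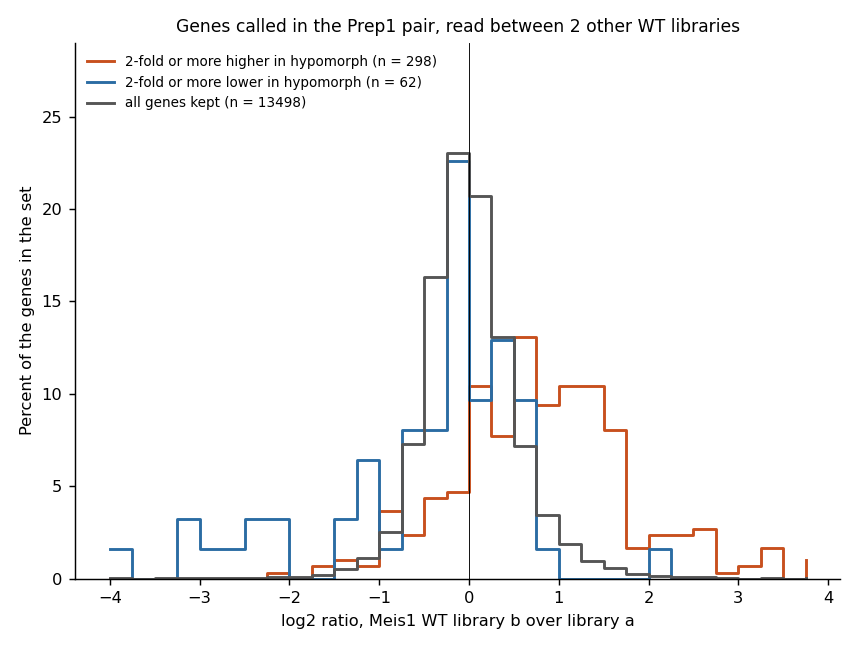
Distribution of the log2 ratio of Meis1 WT library b over library a, in percent of each set, for the genes called higher (orange, n = 298) or lower (blue, n = 62) in the Prep1 pair and for all genes kept that have values (grey, n = 13498). Ratios beyond 4 in size are drawn in the end bins. The orange line lies mostly to the right of 0, where 82.2% of the genes called higher fall.

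The highest ratios among genes with at least 50 counts were led by Alb, the main serum protein of liver. Alb (chromosome 5, 90889915 to 90905629) read 101 CPM (598 counts) in the hypomorph library and 14.7 CPM (59 counts) in WT, a log2 ratio of 2.75 with an interval of 2.40 to 3.19. Its 3 Meis1 WT libraries spread from 7.11 to 80.2 CPM. Krt14, a keratin of basal epidermis, read 11.4 CPM in the hypomorph and 1.5 CPM in WT (2.63). The Meis1 WT libraries read 4.67 to 50.3 CPM for Krt14, a range that holds the hypomorph level and not that of Prep1 WT. Over all genes kept with values, that range held the Prep1 WT level in 31.0% and the hypomorph level in 29.5%. A level outside the Meis1 WT range is therefore common and does not by itself set a library apart. Both ratios were over 6-fold, and both genes varied more than that among WT embryos of the other litters.

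Cav1, which forms the caveolae of the cell surface, read 65.3 CPM (385 counts) in the hypomorph and 14.7 CPM (59 counts) in WT, a log2 ratio of 2.12. All 3 Meis1 WT libraries, at 28.4 to 78.0 CPM, were above the Prep1 WT library and spanned the hypomorph level. Nfix, a nuclear factor I gene, read 22.9 CPM in the hypomorph and 5.25 CPM in WT (2.04), and Meis1 WT libraries ran from 2.89 to 21.1 CPM. Penk, the enkephalin precursor, read 15.3 CPM in the hypomorph and 3.25 CPM in WT (2.10). The platelet chemokine gene Ppbp read 9.67 CPM in the hypomorph and 1.75 CPM in WT (2.23), with 3.55 to 10.9 CPM in Meis1 WT libraries. Of the remaining members of the 15 highest, Hbb-b1, Klf4, Hsd3b6, Agtr2, Col9a3, Htra1, C1qtnf7, March1 and Zcchc5 had log2 ratios between 1.66 (Zcchc5) and 2.23 (Hbb-b1). The symbol of March1, a ubiquitin ligase gene, had been turned into a date in the deposited table and was restored from its gene identifier, as for 22 genes in all.

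The lowest ratio belonged to Slc15a2, a transporter of small peptides. It lies on chromosome 16, from 36750264 to 36785048, and had 2 counts (0.339 CPM) in the hypomorph library and 82 counts (20.5 CPM) in WT, a log2 ratio of -4.81 with an interval of -8.99 to -4.02. Among genes with at least 50 counts and no predicted name, Pknox1 came next, and Lin28a, an RNA-binding protein of early embryos, followed. Lin28a (chromosome 4, 133559245 to 133574756) read 10.9 CPM (64 counts) in the hypomorph and 40.7 CPM (163 counts) in WT (-1.87), with Meis1 WT libraries from 4.63 to 39.5 CPM. Both Prep1 libraries thus lay within or at the edge of the range seen among other WT embryos for Lin28a, which was not so for Pknox1 or Slc15a2 in the hypomorph.

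Among the other genes of the 15 lowest, Card14, a scaffold of inflammatory signalling, had a ratio of -1.64, and its WT level of 12.5 CPM was above the Meis1 WT range of 3.33 to 5.50 CPM. Adamts4, a protease of cartilage matrix, was alike: 5.43 CPM in the hypomorph and 15.5 CPM in WT (-1.45), with 7.44 to 8.0 CPM in Meis1 WT libraries. Trpm3, a cation channel gene, read 5.43 CPM in the hypomorph and 12.7 CPM in WT (-1.17), with 2.82 to 5.55 CPM in Meis1 WT libraries. For Card14 and Trpm3 it was the Prep1 WT library that lay outside the WT range of the other litters. That range held the Prep1 WT level in only 31.0% of all genes kept with values. Arg1, the arginase of the urea cycle, had the same counts as Trpm3 in both libraries, 32 in the hypomorph and 51 in WT. Atp6v0c, a proton pump subunit, Lars2, a mitochondrial transfer RNA synthetase, and Prtg, a cell surface protein of early neural tissue, had ratios of -1.44, -1.18 and -1.15.

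Each library was then set against all 7 others, to count the genes in which it stood at least 2-fold beyond the nearest of them, over 14116 genes and with 0.4 CPM added to each level. Standing above also needed 20 or more counts in the library itself, which is a lower CPM in a larger library. Standing below also needed at least 5 CPM in each of the 7 others. The hypomorph library stood above in 31 genes and below in 9. The Prep1 WT library stood above in 7 and below in 8. Meis1 libraries ranged from 0 above in WT a to 89 above in KO a, and from 0 below in KO c to 27 below in KO a. The hypomorph library therefore did not hold the largest number either way. Its 31 above were exceeded only in KO a, and WT b came next with 18. Its 9 below were exceeded in KO a and in KO b (11).

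Slc15a2 and Pknox1 were farthest below, 3.29 and 3.04 log2 units under the nearest other library. Slc15a2 read at least 6.85 CPM in each other library. Pop5, a protein subunit of the RNA-processing enzymes RNase P and RNase MRP, read 26.3 CPM (155 counts) in the hypomorph and 69.2 CPM (277 counts) in WT, a log2 ratio of -1.38. Its other 6 libraries lay between 68.0 and 94.2 CPM. Gramd3, a gene for a lipid-binding domain protein, read 13.6 CPM in the hypomorph and 33.5 CPM in WT (-1.28), with 30.5 to 42.5 CPM elsewhere. Tmem160 read 1.70 CPM in the hypomorph and 7.25 CPM in WT, and Prr13 read 14.4 CPM in the hypomorph and 30.0 CPM in WT. The remaining 3 carry clone or predicted names or none. Pknox1, Pop5 and Gramd3, unlike Lin28a, had levels within 2-fold of each other in the 7 other libraries and a low level in the hypomorph.

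Of the 31 genes in which the hypomorph stood above, the ones named here were chosen after their values were seen, and no gene group was counted among the 31. Gad2, which makes the transmitter GABA, read 16.6 CPM (98 counts) in the hypomorph and 5.0 CPM (20 counts) in WT, a log2 ratio of 1.66, with 1.78 to 4.48 CPM in the Meis1 libraries. Gad1, the other such enzyme, read 8.99 CPM in the hypomorph and 4.25 CPM in WT (1.01). Slc6a5, a glycine transporter, read 9.5 CPM in the hypomorph and 3.75 CPM in WT (1.25). For these 3 genes the Prep1 WT library also held more than the highest Meis1 library. Sez6l, Csmd2, Mast1 and Trim67 had log2 ratios between 1.01 (Mast1) and 1.24 (Sez6l). Neb, the giant filament protein of skeletal muscle, read 29.7 CPM in the hypomorph and 11.5 CPM in WT (1.34). Entpd4, an enzyme of nucleotide breakdown, read 87.9 CPM in the hypomorph and 32.2 CPM in WT (1.44), with 34.6 to 40.0 CPM in the Meis1 libraries.

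**Figure D3:**
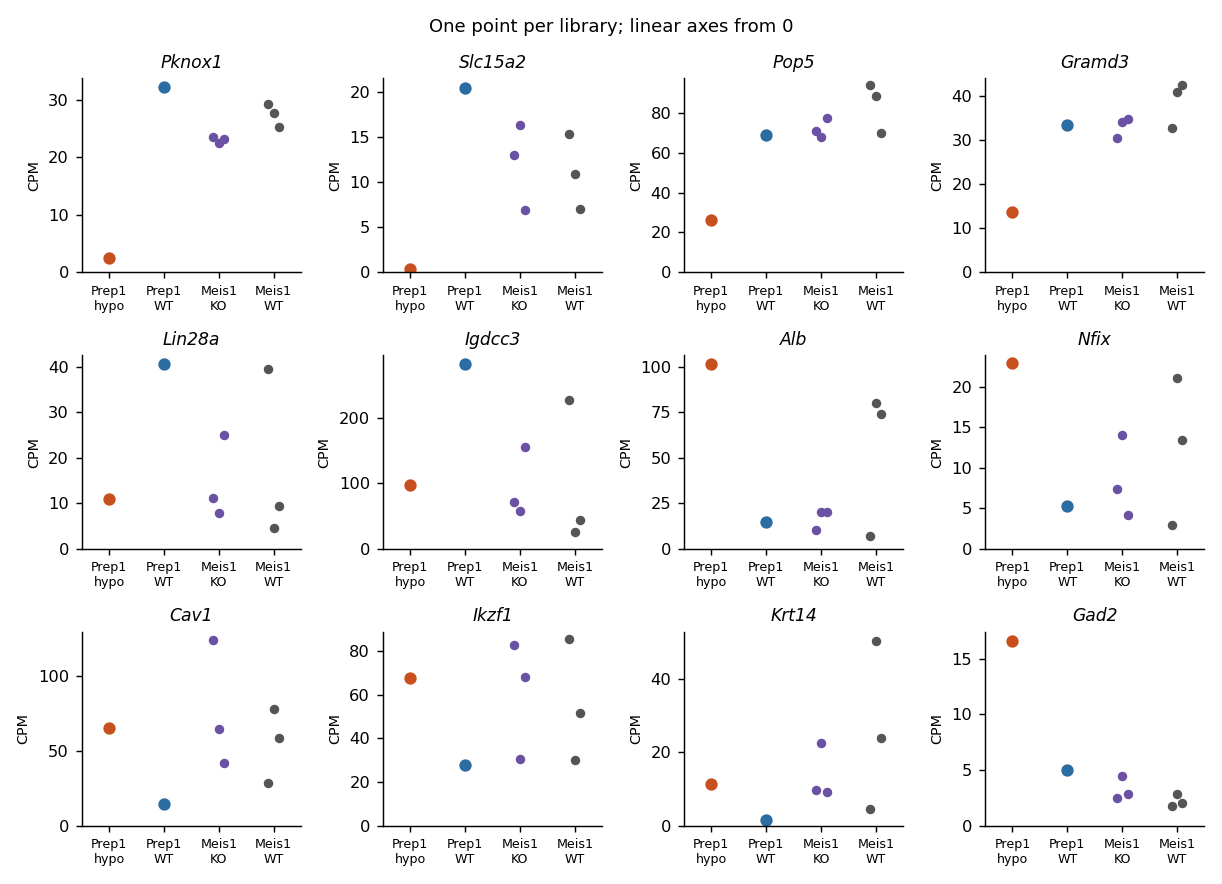
Levels of 12 genes in CPM, 1 point per library, in the Prep1 hypomorph, Prep1 WT, Meis1 KO and Meis1 WT libraries, on linear axes that start at 0. For Pknox1, Slc15a2, Pop5 and Gramd3 the hypomorph point lies below all 7 others, and for Gad2 it lies above them. For Lin28a, Igdcc3, Alb, Nfix, Ikzf1 and Krt14 the 3 Meis1 WT points are spread over at least as large a fold as the Prep1 pair.

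The promoter of Pop5 is shown since this gene had the most counts of the 9 genes in which the hypomorph stood below, and it was chosen after its motif matches were seen. The motif searched was the hexamer TGACAG, a core site of Prep and Meis proteins. Promoters are from RefSeq on GRCm38.p6, a later build than mm9, and run from 250 bases before to 50 bases after a gene's start. The letters TGACAG were searched on both strands and are printed in capitals. They occur in 19.2% of 32851 promoters of this length. In Pop5 (chr5:115235601-115235900, plus strand) they occur at 2 places. The promoters of Slc15a2 and Tmem160, searched in the same way, hold 0 matches each.
Pop5: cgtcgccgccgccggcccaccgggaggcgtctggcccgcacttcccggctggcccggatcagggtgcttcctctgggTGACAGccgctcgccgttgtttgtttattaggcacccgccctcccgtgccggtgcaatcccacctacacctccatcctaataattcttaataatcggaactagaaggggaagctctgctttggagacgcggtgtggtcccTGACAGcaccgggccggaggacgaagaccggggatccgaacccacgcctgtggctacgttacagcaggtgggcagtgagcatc
Promoters were matched for 72.1% of the genes called higher and 59.7% of those called lower, under 80%, so a comparison of motif shares between the sets would be void and is not given.

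Of 18 TALE homeobox genes, 17 were kept and only Pknox1 was past 2-fold. The median of the 17 was -0.03, near the 0.02 of all genes. Among the Prep and Meis genes, Pknox2, the paralogue of Prep1, read 46 CPM in the hypomorph and 46.7 CPM in WT (-0.02). Meis1 read 118 CPM in the hypomorph and 141 CPM in WT, a log2 ratio of -0.25 with an interval of -0.41 to -0.09. Meis2 was at -0.03 and Meis3 at -0.33. No paralogue was higher by 2-fold in the library with little Pknox1.

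Of the genes for the Pbx partners, Pbx2 was at -0.25 and Pbx4 at 0.34. Pbx3 read 95.5 CPM in the hypomorph and 93.5 CPM in WT (0.03). Of the Iroquois genes, which pattern neural tube and heart, Irx3 had the ratio farthest from 0: 41.4 CPM in the hypomorph and 64 CPM in WT (-0.62). Irx5 was at -0.35, Irx4 at -0.20, Irx1 at 0.21 and Irx2 at 0.25, and Irx6 had too few counts. The repressor genes Tgif1 and Tgif2 were at 0.08 and -0.05, and Mkx, a tendon factor, was at 0.27.

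The Lin28 and let-7 list was the lowest of the 47 lists by its median, -0.48 over 19 kept members, of which 4 were lower by 2-fold, none was higher, and 17 were below 0. Of all genes kept, 0.45% were lower by this rule, and 6405 of 13780 were below 0. Lin28a and Lin28b bind the precursors of let-7 microRNAs and block their maturation, and mature let-7 represses Lin28 and a set of growth genes through their messages. Lin28 levels are known to decline as the mouse embryo ages through midgestation. The let-7 microRNAs were not measured in these libraries, and 2 members are shown for the shared seed by which they find targets, bases 2 to 8, in capitals (RefSeq, GRCm38.p6).
mmu-let-7a-5p: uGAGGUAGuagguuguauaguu
mmu-let-7g-5p: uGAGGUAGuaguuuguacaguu

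Lin28b read 35.3 CPM (208 counts) in the hypomorph and 77.5 CPM (310 counts) in WT, a log2 ratio of -1.13 with an interval of -1.39 to -0.88. Igdcc3, a cell surface protein of the immunoglobulin family, read 97.2 CPM (573 counts) in the hypomorph and 283 CPM (1131 counts) in WT (-1.54). Hmga1, a chromatin protein of growing cells, read 78.4 CPM in the hypomorph and 178 CPM in WT (-1.18). The Meis1 WT libraries spanned a larger fold than the Prep1 pair for all 3: 17.1 to 75.5 CPM for Lin28b, 25.9 to 227 CPM for Igdcc3 and 33.6 to 170 CPM for Hmga1. Just short of 2-fold were Sall4, a factor of pluripotent cells, and Trim71, a let-7 target and RNA-binding ligase, both at -0.94. Hmga2, Igf2bp2 and Ccnd2, further let-7 targets, were at -0.19, -0.20 and -0.10. In the Meis1 WT libraries the list's median, as a log2 ratio to the mean of the 6 Meis1 libraries, was 0.45 in a, -0.52 in b and -0.18 in c.

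The promoters of 3 genes of this list that were lower by 2-fold in the hypomorph library follow (RefSeq, GRCm38.p6, capitals as above). They were chosen after values were seen, and the promoter of Hmga1, also lower by 2-fold, is not shown. The letters TGACAG occur in 19.2% of all promoters of this length. With 3 chosen promoters, whether the list differs from that share was not tested. Lin28a (chr4:134018767-134019066, minus strand) does not hold the letters TGACAG, and Lin28b (chr10:45470152-45470451, minus strand) and Igdcc3 (chr9:65140904-65141203, plus strand) hold them once each.
Lin28a: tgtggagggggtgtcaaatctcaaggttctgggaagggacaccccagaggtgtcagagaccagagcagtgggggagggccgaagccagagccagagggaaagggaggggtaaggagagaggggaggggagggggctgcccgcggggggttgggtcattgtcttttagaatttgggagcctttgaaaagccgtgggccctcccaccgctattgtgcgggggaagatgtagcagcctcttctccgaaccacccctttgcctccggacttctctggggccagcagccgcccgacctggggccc
Lin28b: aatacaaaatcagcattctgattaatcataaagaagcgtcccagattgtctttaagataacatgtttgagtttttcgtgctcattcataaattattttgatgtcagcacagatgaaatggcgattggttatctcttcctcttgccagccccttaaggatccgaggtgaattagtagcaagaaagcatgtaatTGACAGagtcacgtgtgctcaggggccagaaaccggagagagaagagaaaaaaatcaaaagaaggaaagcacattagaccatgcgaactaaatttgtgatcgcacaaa
Igdcc3: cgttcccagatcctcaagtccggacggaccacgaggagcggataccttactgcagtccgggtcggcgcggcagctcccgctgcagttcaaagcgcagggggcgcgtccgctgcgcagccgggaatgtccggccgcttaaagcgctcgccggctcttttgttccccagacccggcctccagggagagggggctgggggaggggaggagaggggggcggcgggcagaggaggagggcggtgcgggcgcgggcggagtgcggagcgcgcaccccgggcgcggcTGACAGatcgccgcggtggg

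The list named for serum proteins of fetal liver and yolk sac had the highest median of the 47 lists, 1.12 over 23 kept members. Of these members 14 were higher by 2-fold, none was lower and 19 were above 0. Of all genes kept, 2.16% were higher by this rule and 53.5% were above 0. The hepatoblast and yolk sac endoderm panel of 6 defining markers summed to 540 CPM in the hypomorph and 185 CPM in WT, and each of the 6 was called higher. In the Meis1 libraries that sum averaged 169 CPM in KO and 295 CPM in WT. In whole embryos, more cells of a type and more RNA per cell cannot be told apart.

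Of the carriers and apolipoproteins, Trf, which carries iron, read 99.1 CPM (584 counts) in the hypomorph and 35.0 CPM (140 counts) in WT (1.49). Afp, the fetal counterpart of albumin, read 262 CPM (1544 counts) in the hypomorph and 107 CPM (430 counts) in WT (1.28). Apob and Apoa1, of lipoprotein particles, were at 1.54 and 1.42. Rbp4, which carries retinol, read 15.9 CPM in the hypomorph and 5.25 CPM in WT (1.53), with 3.11 to 17.7 CPM in Meis1 WT libraries. Serpina6, which carries steroids, read 23.1 CPM in the hypomorph and 7.5 CPM in WT (1.57), with 7.55 to 28.9 CPM in Meis1 WT libraries.

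The clotting genes Fga, Fgb and F2 were at 1.17, 1.31 and 1.12, while Fgg, the remaining fibrinogen chain, was at 0.32 with 30 counts in the hypomorph and 16 in WT. Transcription factors of the endoderm did not follow the serum genes: Hnf4a was at 0.14, Prox1 at -0.10, Foxa1 at -0.36 and Foxa2 at -0.35. In the Meis1 WT libraries the list's median against the mean of the 6 was -0.75 in a, 0.33 in b and 0.85 in c, a span larger than the Prep1 pair's median.

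**Figure D4:**
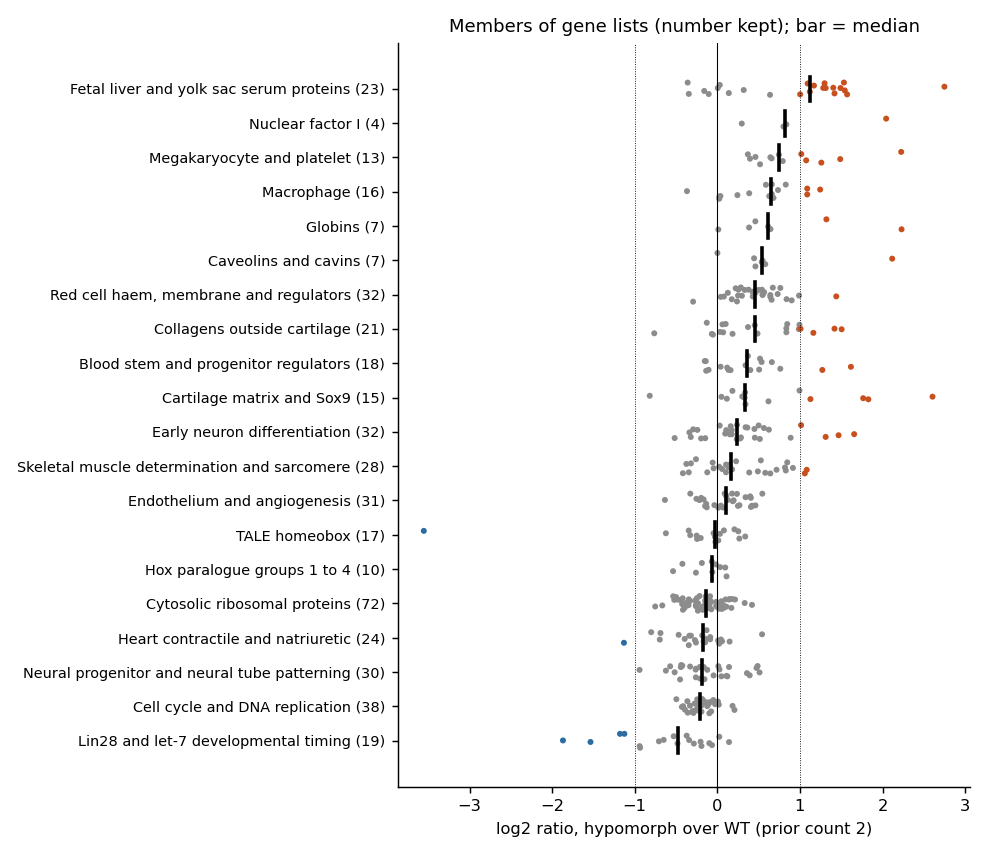
Log2 ratio, hypomorph over WT, of each kept member (points) of 20 of the 47 gene lists, with the number kept in brackets and the median as a bar. Orange members are 2-fold or more higher and blue members 2-fold or more lower. The serum protein list stands highest by the median (1.12) and the Lin28 and let-7 list lowest (-0.48), and the only TALE point past 2-fold is Pknox1.

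Most genes of red cells, platelets and macrophages were above 0. Of 32 kept red cell genes, 31 were above 0 with a median of 0.46, and 1 was past 2-fold, against 53.5% of all genes above 0. That gene, Trim10, an erythroid ligase, read 16.3 CPM in the hypomorph and 5.75 CPM in WT (1.44), and the 3 Meis1 WT libraries held 25 to 26.7 CPM. Gata1 and Klf1, which direct red cell genes, were at 0.43 and 0.38, with intervals that include 0. Rhag and Kel, of the red cell surface, were at 0.99 and 0.90. The red cell list's Meis1 WT medians against the mean of the 6 were 0.09 in a, -0.59 in b and -0.04 in c. That span is larger than 0.46.

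The 7 globin genes were all above 0, with a median of 0.62. Only 2 of them had values per Meis1 library. Their Meis1 WT medians against the mean of the 6 were -1.75 in a, 0.54 in b and -0.61 in c, a span larger than 0.62. The adult globin gene Hbb-b1 read 12 CPM (71 counts) in the hypomorph and 2.25 CPM (9 counts) in WT (2.23), and its neighbour Hbb-b2 read 40.6 CPM in the hypomorph and 16 CPM in WT (1.32). The embryonic globins Hbb-y and Hbb-bh1 were at 0.62 and 0.01. Near-identical globin copies can share reads, so the split between them is uncertain. The 6 erythroid markers summed to 6907 CPM in the hypomorph and 5163 CPM in WT, without any of them past 2-fold.

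Megakaryocyte and platelet genes had a median of 0.75, with 5 of 13 higher by 2-fold, none lower and all 13 above 0, against 2.16% higher, 0.45% lower and 53.5% above 0 among all genes kept. Beside Ppbp these were Clec1b, a platelet receptor (9.84 CPM in the hypomorph and 3.25 CPM in WT, 1.49), F2rl2, a thrombin receptor (1.26), Rab27b, of granule release (1.08), and Pf4, a platelet chemokine (1.02). In the Meis1 WT libraries the platelet list's median against the mean of the 6 was -0.005 in a, 0.12 in b and 0.43 in c. That span is smaller than the Prep1 pair's median. In the Meis1 KO libraries the platelet list's median was 0.27 in a, -1.43 in b and -0.29 in c. The KO span is larger than the Prep1 pair's median. The macrophage list had a median of 0.64 with 3 of 16 higher: Mrc1, the mannose receptor (18.3 CPM in the hypomorph and 7.5 CPM in WT, 1.25), Lyz2, lysozyme (1.09), and C1qa, of complement (1.09). Lyz2 and C1qa had the same 34 counts in the hypomorph and 10 in WT. For the macrophage list the Meis1 WT medians were -0.54 in a, 0.60 in b and 0.21 in c, a span larger than the Prep1 pair's median. The Meis1 WT ranges of Mrc1, Lyz2 and C1qa included the hypomorph level and not the WT level of the Prep1 pair, with the exception of C1qa, whose range of 2.22 to 10.5 CPM includes both.

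Regulators of blood stem and progenitor cells had a median of 0.36, with 2 of 18 past 2-fold, both higher. Of all genes kept, 2.16% were higher. Ikzf1, a factor of lymphoid and other blood cells, read 67.5 CPM (398 counts) in the hypomorph and 27.7 CPM (111 counts) in WT, a log2 ratio of 1.27 with an interval of 0.98 to 1.6. Meis1 WT libraries lay between 30.0 and 85.8 CPM for it. Spn, a leukocyte surface protein, was at 1.62 on 23 counts in the hypomorph and 4 in WT. Tal1 was at 0.76 and Runx1 at 0.54, while Myb (-0.15), Gata2 (-0.11) and Kit (0.12) were near 0. The endothelial list had no member past 2-fold among 31, with a median of 0.11, from Dll4 at -0.63 to Robo4 at 0.54.

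The neural lists differed in the sign of their medians. Early neuron genes had a median of 0.24, with 4 of 32 higher and none lower: Gad2, Prph, Myt1l and Gad1. The share higher among all genes kept was 2.16%. Prph, the filament protein of peripheral neurons, read 17.3 CPM in the hypomorph and 6.00 CPM in WT (1.47), and Myt1l, a neuronal factor, 12.4 CPM in the hypomorph and 4.75 CPM in WT (1.31). Neural progenitor and patterning genes had a median of -0.18 and none of 30 past 2-fold. Of these, Nkx6-2 was at -0.94, Sox3 at -0.57, Pax6 at -0.45 and Sox2 at -0.33. In Meis1 WT libraries a, b and c the early neuron list's medians against the mean of the 6 were 0.02, 0.05 and -0.35. Those of the progenitor list were 0.18, -0.38 and 0.01. Each span is larger than the size of that list's median in the Prep1 pair. Axon guidance genes had a median of 0.17 with none of 37 past 2-fold, and the guidance receptors Plxna4 (0.95), Robo2 (0.89), Unc5d (0.87) and Ephb1 (0.77) were highest.

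In summed markers, the 4 neuron markers held 1001 CPM in the hypomorph and 889 CPM in WT, and the 3 progenitor markers 883 CPM in the hypomorph and 1049 CPM in WT. Among neural crest and sympathetic genes, Foxd3, of early crest (1.21), and Th, of catecholamine synthesis (1.09), were 2 of 21 past 2-fold, on 44 and 34 counts in the hypomorph. Over all genes kept 2.16% were higher. Sox10 and Ngfr, of crest cells in general, were at -0.02 and -0.03. Eye genes, of interest because reduced Prep1 affects the eye, had 13 of 38 members kept and none past 2-fold. Six3, a factor of the optic cup and forebrain, was at -0.46 on 72 counts in the hypomorph and 68 in WT.

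In connective tissue, genes of collagen VI, a filament around cells, were among the higher ones. Of 21 collagens outside cartilage 4 were past 2-fold, none was lower, and the median was 0.45. Among all genes kept 2.16% were higher by 2-fold. The list's Meis1 WT medians against the mean of the 6 were -0.43 in a, 0.41 in b and -0.003 in c. That span is larger than 0.45. Col6a3 read 85.5 CPM (504 counts) in the hypomorph and 31.7 CPM (127 counts) in WT (1.42), above the Meis1 WT range of 24.0 to 54.9 CPM. Col6a1 was at 1.16, Col8a1 at 1.5 and Col25a1 at 1.01. Col1a1 and Col1a2 were just under 2-fold at 0.84 and 0.85. Basement membrane collagens did not share this: Col4a1 was at -0.05, Col4a2 at 0.06 and Col18a1 at -0.13.

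The cartilage list had a median of 0.34 with 4 of 15 higher, against 2.16% of all genes kept. Col9a3 read 26.5 CPM in the hypomorph and 7.5 CPM in WT (1.77). Matn4 (2.61), Acan (1.83) and Runx2, the factor of bone formation (1.13), were the others, and Matn4 and Acan rested on 39 and 27 counts in the hypomorph. Sox9 and Col2a1, which mark cartilage progenitors, were at 0.05 and 0.12. All 4 nuclear factor I genes, transcription factors that act late in the differentiation of many tissues, were above 0, with Nfia at 0.80, Nfib at 0.84 and Nfic at 0.30 beside Nfix. Their median in the Meis1 WT libraries against the mean of the 6 was -0.91 in a, 0.51 in b and -0.05 in c. Caveolae genes had a median of 0.54, and Cav1 alone of 7 was past 2-fold. For this list the Meis1 WT medians were -0.09 in a, 0.09 in b and -0.01 in c, a span smaller than 0.54.

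Of the epidermal list, Krt14, Krt5 (1.16) and Krt15 (1.15), keratins of the basal layer, were past 2-fold, and Krt8 and Krt18, of simple epithelium, were at -0.26 and -0.36. Skeletal muscle had 2 of 28 past 2-fold: Myod1, which commits cells to muscle, read 15.3 CPM in the hypomorph and 7.00 CPM in WT (1.08), and Chrna1, a subunit of the muscle acetylcholine receptor (1.06), rested on 21 counts in the hypomorph and 6 in WT. Myod1 ranged from 0.889 to 11.7 CPM in Meis1 WT libraries. The share of all genes kept that was higher by 2-fold was 2.16%.

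Heart contractile genes ran the other way, with a median of -0.17 and 18 of 24 below 0, against 6405 of 13780 of all genes kept. Myh6, the myosin of atria, read 68.7 CPM (405 counts) in the hypomorph and 151 CPM (604 counts) in WT, a log2 ratio of -1.13, and was the only member past 2-fold. Its Meis1 WT libraries ran from 87.1 to 237 CPM, above the hypomorph. Mybpc3 was at -0.80 and Myh7 at -0.70, and Meis1 WT libraries held 46.3 to 66.0 CPM and 216 to 323 CPM. For these 2 genes both the hypomorph levels, 25.8 and 107 CPM, and the WT levels, 45.2 and 173 CPM, were under those ranges. Nppa, an atrial hormone, was at 0.54, and Myl2, of ventricles, at 0.01. The 4 heart markers summed to 241 CPM in the hypomorph and 394 CPM in WT. Among cardiac transcription factors none of 19 was past 2-fold, and the lowest were Smyd1 (-0.72) and Gata4 (-0.61).

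Hox genes, whose proteins work with Pbx and Prep or Meis, were close to 0 as a family. Paralogue groups 1 to 4 had a median of -0.06, 5 to 8 of -0.05 and 9 to 13 of 0.20. The exception was Hoxd13, of the distal limb, with 32.2 CPM (190 counts) in the hypomorph and 14.5 CPM (58 counts) in WT, a log2 ratio of 1.13. Its neighbours in order along the cluster had smaller ratios, 0.63 for Hoxd12, 0.11 for Hoxd11 and 0.51 for Hoxd10. Hoxa13 was at 0.58. Anterior genes with the lowest ratios were Hoxd4 (-0.54) and Hoxd3 (-0.42), and both Prep1 libraries were above the Meis1 WT range for each. Hoxd4 read 29.5 CPM in the hypomorph and 43 CPM in WT, with 10.7 to 15.3 CPM in Meis1 WT libraries. Of 33 limb and face factors, only Osr1, of limb and kidney mesenchyme, was past 2-fold (32.1 CPM in the hypomorph and 12 CPM in WT, 1.39). Among all genes kept 2.16% were higher.

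Among signalling genes, Fgf8, a growth factor of brain and limb signalling centres, read 2.38 CPM (14 counts) in the hypomorph and 9.0 CPM (36 counts) in WT (-1.76), and Meis1 WT libraries ran from 2.21 to 16.2 CPM. Fgf17, of the same subfamily, was at -0.75, and their feedback targets Dusp6, Etv5 and Spry2 were at -0.31, -0.35 and -0.14. Fgfr4, a receptor, was higher at 1.09. Of 41 Wnt genes only Wnt11 was past 2-fold (1.23), and of 32 in the BMP and TGF-beta list only Gdf10 (1.05). The retinoic acid list had Rbp4 and the receptor gene Rxrg (1.48, on 29 counts in the hypomorph and 6 in WT) past 2-fold, and Crabp1, a binding protein, at -0.54. None of 15 Hedgehog genes or 22 Notch genes was past 2-fold. Among all genes kept 2.16% were higher and 0.45% lower. Shh was at -0.50, and Dtx1, a Notch modulator, at 0.89.

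Lists of growth and upkeep shifted little. None of 38 cell cycle and replication genes was past 2-fold, yet 34 were below 0, with a median of -0.21 and Tk1, thymidine kinase, lowest at -0.50. Of all genes kept, 6405 of 13780 were below 0 and 53.5% above 0. DNA repair genes had 25 of 30 below 0 (median -0.13), and cholesterol synthesis genes 23 of 28 (median -0.20, Dhcr7 lowest at -0.59). The p53 list had a median of -0.02: Cdkn1a, its best known target, was at 0.34 and Bax, of cell death, at -0.45. Ribosomal protein genes had a median of -0.13. Genes induced by low oxygen were above 0 in 18 of 21 (median 0.31), with none past 2-fold. Their Meis1 WT medians against the mean of the 6 were -0.48 in a, -0.64 in b and -0.54 in c, a span smaller than 0.31. Their Meis1 KO medians were 1.31 in a, -0.41 in b and -0.39 in c, a span larger than 0.31. In the Meis1 WT libraries the cell cycle list's median against the mean of the 6 was 0.24 in a, -0.14 in b and 0.04 in c.

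Of 19 immediate early genes Klf4 alone was past 2-fold, of 18 clock genes Bhlhe40 alone (9.16 CPM in the hypomorph and 3.25 CPM in WT, 1.39), and of 32 imprinted genes Dcn alone, a matrix proteoglycan (1.03). Peg12 was the lowest imprinted gene at -0.82. For all genes kept the shares were 2.16% higher, 0.45% lower and 53.5% above 0. Of 30 heat shock and chaperone genes kept, none was past 2-fold, the median was -0.08 and 20 were below 0. The lowest of them was Hspb1, a small heat shock protein (-0.57, on 19 counts in the hypomorph and 20 in WT). Of 21 genes of glucose uptake and glycolysis none was past 2-fold, the median was 0.15 and 16 were above 0, between -0.51 for Gapdh and 0.87 for Aldoc, both enzymes of glycolysis. Gapdh held 51 counts in the hypomorph and 50 in WT. Of 9 mitochondrially encoded respiratory chain genes kept, 7 were below 0 with a median of -0.12, and mt-Nd3 alone was past 2-fold (1.01, on 32 counts in the hypomorph and 10 in WT). Clustered histones had 4 of 61 members kept, and of the trophoblast list only Hand1 was kept, while the defining markers Prl3d1, Tpbpa and Prl2c2 are not listed in the table.

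The Y-linked genes Ddx3y, Uty, Kdm5d and Eif2s3y were read in both libraries, with 50.1 CPM in the hypomorph and 45.2 CPM in WT for Ddx3y. Eif2s3y read 102 CPM in the hypomorph and 49.7 CPM in WT (1.03). Xist, the RNA of the inactive X chromosome, had 1 count in the hypomorph library and 23 counts in WT, while the Meis1 WT libraries held at most 0.298 CPM. Its log2 ratio of -3.42 has an interval of -10.45 to -2.46 and rests on these few counts. Whether the sex of the embryos bears on other ratios was not tested.

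Around Pknox1 on chromosome 17, 7 other kept genes start within 500 kb, and none was past 2-fold. They ran from -0.45 for U2af1, a splicing factor, to 0.31 for Pde9a, a phosphodiesterase. The 2 nearest gene starts, Wdr4 and Ndufv3, were at 0.13 and -0.17. Within 2000 kb there were 39 genes with a median of 0.02, of which Cyp4f13 alone was past 2-fold (1.0, on 29 counts in the hypomorph and 9 in WT). The low Pknox1 ratio was therefore not shared by its neighbours. On the whole chromosome 7 of 637 genes were called lower (1.10%), Pknox1, Hmga1 and Atp6v0c among them, and 9 were called higher (1.41%). Among all genes kept the shares were 0.45% lower and 2.16% higher. Chromosome 9 had a larger lower share, 9 of 766 genes (1.17%).

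**Figure D5:**
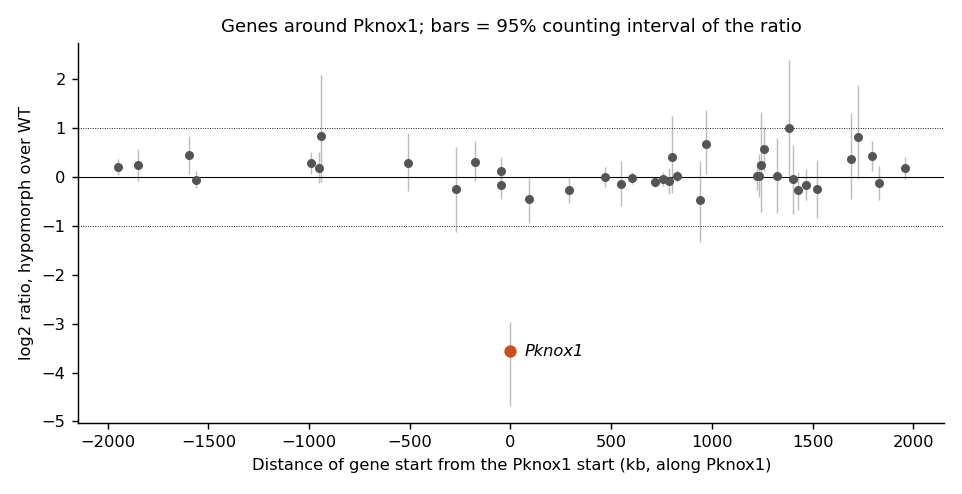
Log2 ratio, hypomorph over WT, of kept genes by the distance of their start from that of Pknox1 in kb, with 95% counting intervals as bars and 2-fold as dotted lines. Pknox1 (orange) lies at -3.55, and the 39 other genes lie between -0.47 and 1.0.

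Genes next to the 2-fold limit show how close the calls run. Mpo (1.0, with 79 counts in the hypomorph and 26 in WT), Emilin3 and Apom were just inside on the higher side, and Ctss, Dlk2 and Ube2ql1 just outside. On the lower side Zfp959 (-1.01, with 23 counts in the hypomorph and 33 in WT), Cygb and Rgl3 were just inside and Metrn, AY358078 and Clic6 just outside. The interval lay wholly beyond 2-fold for 30 of the 298 higher genes and 15 of the 62 lower genes.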

How the data were processed

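Messenger RNA of whole embryos was sequenced as single-end reads, per the labels' protocols, and expression was estimated with RSEM on mm9, per the submitters' processing notes. The Prep1 values are expected counts deposited by the authors, whole numbers with 0 written as 0.1. The log2 ratio deposited by the authors is not scaled for library size (its median is 0.58) and was not used. The Meis1 values are a signal deposited by the authors, counts divided by size factors and averaged per group, and the authors' log2 ratio and a score (a variance ratio) stand beside them. No source used here states the authors' filter on genes.

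Repeated entries (34 of 17382) were dropped, counts were scaled by column total, and log2 ratios used a prior count of 2. A gene was kept with 20 or more counts in the higher library and called past 2-fold. No test was made, and edgeR 4.0.16 and DESeq2 1.42.0 gave alternative scalings only. In counts simulated for the Prep1 comparison, 2-fold was passed by 99% of genes given a change of 1.5 log2 units and by 0.263% of the rest. The counting interval covered the simulated ratio in 95.9% of genes, so these counts vary by counting error only. They hold no difference between embryos, and 0.263% is not a rate of false calls for the real pair. Whole counts of each Meis1 library were worked back for group means up to 2000, with a single solution for 100% of genes tried. Libraries are lettered by size and are not tied to sample labels, and CPM of these counts follow the authors' size factors.

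Members and the 47 lists were chosen with earlier results of these data known. Named genes are Pknox1, Alb, Lin28a, all TALE members, the 15 genes at either end of the ratios (50 or more counts, no predicted name), and the most shifted members of each list, 4 at most. Other genes named, the comparison of each library with the 7 others, the pairings of Meis1 WT libraries and the promoters shown were chosen after values were seen. Counts were not stated to use strand, so overlapping and antisense genes and near-identical copies are uncertain. A few genes that the naming rule covers are not reported here.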

Additional observations from a re-analysis of the deposited data

How the results depend on the processing

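The minimum count moved the number of calls most: with at least 10 counts 483 genes were higher and 121 lower, with at least 50 counts 134 and 21, and with no minimum 715 and 248. A prior count of 0.5 gave 336 higher and 70 lower genes and one of 5 gave 221 and 48, while TMM scaling gave 277 and 64 and median-of-ratios scaling 275 and 66. Of the 298 higher and 62 lower genes, a prior of 5 kept 221 and 48. TMM scaling kept 277 and 62 of them, and median-of-ratios scaling 275 and 62. A prior of 0.5 or a minimum of 10 cannot remove a call, so those settings do not test the calls. Against the mean of the Meis1 WT libraries, the Prep1 WT library was past 2-fold in 651 genes at 50 counts or more, against 996. Pknox1 stayed between -3.71 and -3.30 in every alternative run for it, and no result changed sign among those past 2-fold. Slc15a2 was at -3.99 with a prior count of 5. No paired analysis was possible because each Prep1 genotype has 1 library, and for the same reason no library could be left out. Depth limits the genes under 50 counts, and the difference between embryos of 1 genotype cannot be measured in this pair.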
